A study of Homo sapiens with 24 samples.

Results

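The 54 genes described here encode enzymes, membrane proteins, proton pump subunits and regulators of the lysosome, together with genes of the autophagy machinery. They were chosen by symbol among known lysosome and autophagy genes with earlier results of these data in view, so the counts below are no independent support for a direction. All 54 were found among the 60366 entries of the deposited count table. They comprise 10 proteases, 11 glycosidases, 5 sulfatases, 6 genes of lipid and phosphate breakdown, 6 genes of the lysosomal membrane and transport, 4 genes of the proton pump, 2 transcription factors and 10 autophagy genes. Poly(A) RNA was sequenced from 3 established human pancreatic cancer cell lines that lack the MTAP gene, BXPC3, MIAPACA2 and PSN1. AM-9747 inhibits PRMT5, an enzyme that methylates arginines of spliceosome and histone proteins, in cooperation with the metabolite methylthioadenosine, which builds up where MTAP is absent. Cells spent 6 days in AM-9747 (BXPC3 and PSN1 in 100 nM, MIAPACA2 in 150 nM) or, for the same time, in the DMSO vehicle. Each of the 6 groups had 4 libraries, and the labels give the genotype of every group as WT. The dose in MIAPACA2 and the line cannot be told apart. Nothing in the labels says that replicates were separate cultures, so the p-values measure the spread between these libraries, which may be technical.

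Lysosomes are acidic organelles in which hydrolases break down proteins, glycans, lipids and glycogen delivered by endocytosis and by autophagy. The V-ATPase, a multisubunit pump, acidifies them, LAMP proteins line their membrane, and TFEB and TFE3 are transcription factors that bind promoters of many lysosomal genes when mTORC1 is inactive. In autophagy, the ULK1 kinase and the BECN1 lipid kinase complex start a membrane that WIPI1, ATG9A and the conjugating proteins ATG5 and ATG7 extend, the LC3 and GABARAP proteins decorate it, and SQSTM1 carries cargo into it. Loss of single hydrolases causes storage diseases, for example Pompe disease for GAA.

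Total counts were 22.4 to 45.6 M per library. The mitochondrial share of the counts was 4.34 to 10.2% in BXPC3 and 6.58 to 20.5% in MIAPACA2, without separation of the treatments. In PSN1 it was 7.98 to 31.1% with AM-9747 and 17.4 to 43.8% with vehicle. The correlation of a library with the others of its group averaged 0.8442 to 0.9139 in PSN1 vehicle and 0.9266 to 0.9561 in PSN1 AM-9747, against 0.9513 to 0.9813 in the other 4 groups, and the biological coefficient of variation was 55.1% in PSN1, against 32.1% in MIAPACA2 and 26.6% in BXPC3. PSN1 libraries therefore carry the largest error here. Of 6 epithelial markers, all were detected in each line, with a summed level of 5240 to 7670 CPM with AM-9747 and 7310 to 12700 CPM with vehicle in BXPC3, 1170 to 1390 CPM with AM-9747 and 1230 to 1590 CPM with vehicle in MIAPACA2, and 1570 to 1820 CPM with AM-9747 and 1680 to 2250 CPM with vehicle in PSN1. In MIAPACA2 the highest of these markers was the keratin KRT18, at a mean of 703 CPM with AM-9747 and 730 CPM with vehicle. CDH1 reached at most 0.253 CPM with AM-9747 and 0.313 CPM with vehicle there. Markers of other cell types were low but moved with treatment in places: 3 endothelial markers summed to 29.5 to 34.3 CPM with AM-9747 and 15.6 to 20.5 CPM with vehicle in BXPC3 and to 16.8 to 25.8 CPM with AM-9747 and 30.1 to 39.2 CPM with vehicle in PSN1, and 4 fibroblast markers to 49.4 to 66.3 CPM with AM-9747 and 21.5 to 32.9 CPM with vehicle in PSN1. In MIAPACA2, fibroblast markers summed to 2.95 to 4.1 CPM with AM-9747 and 0.94 to 2.59 CPM with vehicle, and 3 neural markers to 8.48 to 13.2 CPM with AM-9747 and 6.23 to 7.74 CPM with vehicle. Their part in the following results was not tested. The level of a gene is given in CPM (counts relative to the library total, with TMM scaling), and the fold change, adjusted over all genes tested in a line, comes from edgeR's quasi-likelihood test on the 8 libraries of that line. A gene passes at an adjusted p under 0.05.

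Most members that fell with AM-9747 encode hydrolases in each line, and few of the other members passed in either direction. In RNA from whole cultures, fewer cells with a transcript and less of it per cell cannot be told apart. In BXPC3, 19 of 53 tested members fell and 4 rose, against 16.0% and 13.2% of all genes tested (29.2% in either direction). In MIAPACA2, 11 of 53 fell and 3 rose, against 6.84% and 6.73% of all genes (13.6% in either direction). Without scaling, 8 fell and 7 rose in MIAPACA2, against 3.52% and 10.6% of all genes, and the median log2 fold change over all genes was then 0.15. In PSN1, 6 of 54 fell and 1 rose, against 6.17% and 4.52% of all genes (10.7% in either direction), a share of members (11.1% lower) that lies closer to the background. Without scaling, 4 fell and 2 rose in PSN1, against 2.96% and 6.63% of all genes at a median of 0.37. In the joint fit, 8 members fell and 7 rose in PSN1 (25.2% of all genes in either direction). The tested members had a median log2 fold change of -0.27 in BXPC3 (0.00 over all genes), -0.19 in MIAPACA2 (0.00) and 0.22 in PSN1 (0.03). Among the 32 genes for hydrolases and their activator PSAP, 18 fell and 2 rose in BXPC3, 11 fell and 2 rose in MIAPACA2, and 5 fell and 1 rose in PSN1. Their median log2 fold change was -0.56 in BXPC3 and -0.42 in MIAPACA2. In PSN1 it was 0.00, with 16 of 32 below 0, so the set as a whole did not lean lower there. Among the other 22 members, 1 fell and 2 rose in BXPC3, 1 rose in MIAPACA2, and 1 fell in PSN1. The member not tested was PSAP in BXPC3 and CTSF, a cysteine protease, in MIAPACA2, since each had 0 counts in all 8 libraries. With the mitochondrial share as a covariate, 22 members fell and 7 rose in MIAPACA2, while 35.3% of all genes passed. In PSN1 without vehicle replicate 1, 6 members fell and 6 rose (22.2% of members), next to 23.0% of all genes. Fewer passed in PSN1 when another library was left out: 3 without vehicle replicate 2 (4.11% of all genes), 4 without vehicle replicate 4 (3.37%), 3 without AM-9747 replicate 1 or 2 (5.05% and 2.77%), and 2 without AM-9747 replicate 4 (3.61%).

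**Figure D1:**
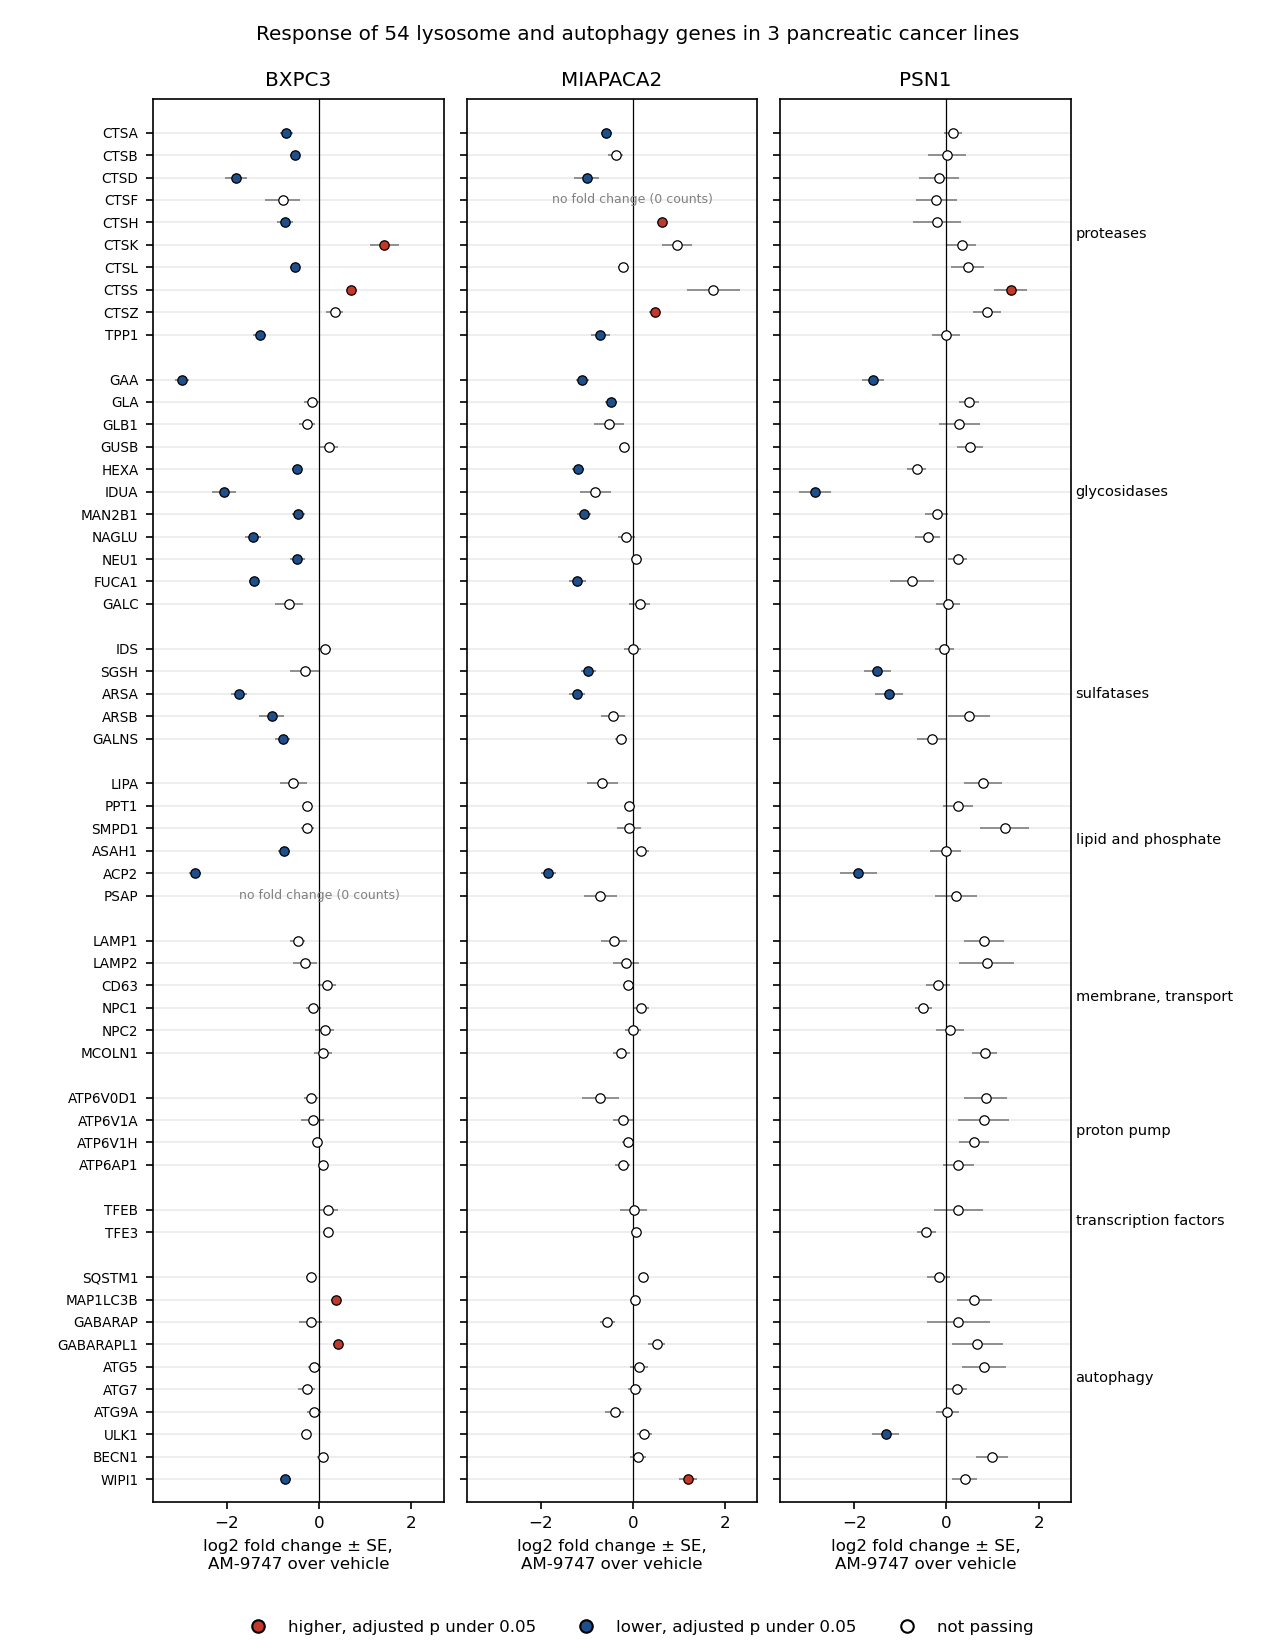
Log2 fold change of AM-9747 over vehicle, with its standard error, for the 54 members in BXPC3, MIAPACA2 and PSN1 (4 libraries per group), grouped by role. Filled points pass at an adjusted p under 0.05, in blue for the 19, 11 and 6 members that were lower and in red for the 4, 3 and 1 that were higher; most filled points lie among the enzymes.

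The hydrolases that fell in all lines, 3 in number, were GAA, the acid alpha-glucosidase that breaks down glycogen, ACP2, the lysosomal acid phosphatase, and ARSA, the arylsulfatase that acts on sulfatides. Of the 14476 genes tested in every line, 1.16% fell in all of them, and 0.718% rose in all, which no member did. GAA had 3.02, 2.32, 2.81 and 2.09 CPM in BXPC3 with AM-9747, against 21.1, 18.4, 20.5 and 20.7 CPM with vehicle, which leaves 12.7% of the vehicle level (log2 -2.97 ± 0.16 SE, adjusted p = 8.63e-06). MIAPACA2 libraries held 97.2, 104, 122 and 96.7 CPM with AM-9747 and 199, 259, 257 and 196 CPM with vehicle (log2 -1.09 ± 0.14, adjusted p = 0.00118). PSN1 libraries held 42.3, 35.0, 61.2 and 44.9 CPM with AM-9747 and 113, 137, 160 and 126 CPM with vehicle (log2 -1.59 ± 0.24, adjusted p = 0.00403). The groups did not overlap in any line, and the call held under every alternative run. BXPC3 started from the lowest level and lost the largest share: its response differed from that of MIAPACA2 by -1.86 ± 0.25 (log2, adjusted p = 0.000119) and from that of PSN1 by -1.43 ± 0.25 (adjusted p = 0.00117), while MIAPACA2 and PSN1 differed by 0.43 ± 0.24 (adjusted p = 0.26).

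ACP2 had 4.78, 5.04, 5.69 and 4.87 CPM in BXPC3 with AM-9747, against 33.7, 28.6, 31.3 and 38.5 CPM with vehicle, or 15.5% of the vehicle level (log2 -2.69 ± 0.14, adjusted p = 8.63e-06). In MIAPACA2 the values were 7.82, 10.0, 11.9 and 12 CPM with AM-9747 and 35.3, 42.1, 42.0 and 32.1 CPM with vehicle (log2 -1.83 ± 0.17, adjusted p = 0.000333). In PSN1 they were 3.6, 2.76, 8.16 and 3.02 CPM with AM-9747 and 16.2, 17.1, 19.4 and 11.5 CPM with vehicle (log2 -1.91 ± 0.41, adjusted p = 0.0168). Every AM-9747 library was below every vehicle library of its line, but the call in PSN1 was lost without vehicle replicate 2 or without AM-9747 replicate 1, 2 or 4 (adjusted p up to 0.0688). Exons of ACP2 overlap those of NR1H3 on the other strand.

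ARSA had 6.59, 9.32, 8.28 and 7.16 CPM in BXPC3 with AM-9747, against 26.4, 21.2, 25.4 and 31.1 CPM with vehicle (log2 -1.73 ± 0.17, adjusted p = 0.000108). In MIAPACA2 the levels were 12.1, 11.3, 7.75 and 11.1 CPM with AM-9747 and 24.8, 21.1, 24.9 and 28.5 CPM with vehicle (log2 -1.21 ± 0.17, adjusted p = 0.00157). In PSN1 the levels were 5.50, 8.36, 8.76 and 5.08 CPM with AM-9747 and 12.3, 14.9, 18.5 and 18 CPM with vehicle (log2 -1.25 ± 0.31, adjusted p = 0.0289). Again the groups were separate in each line. The PSN1 call was lost without scaling, with the mitochondrial share as a covariate, and without vehicle replicate 2 or 4 or AM-9747 replicate 1, 2 or 4 (adjusted p up to 0.1).

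**Figure D2:**
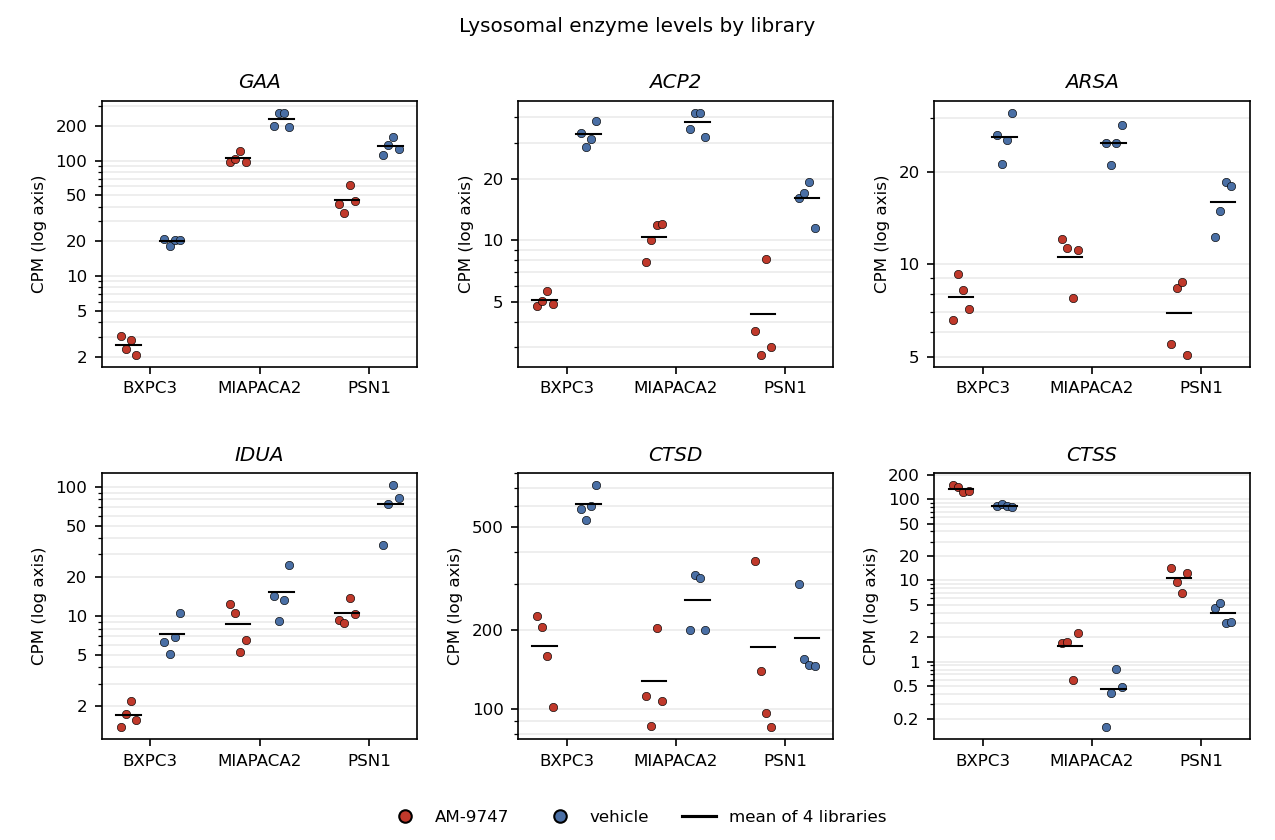
Level of 6 enzyme genes in CPM (log axis) in the 24 libraries, with AM-9747 libraries (red) left of vehicle libraries (blue) in each line and a bar at the mean of 4 libraries. GAA, ACP2 and ARSA are lower with AM-9747 in every line, IDUA is separate in BXPC3 and PSN1, CTSD is separate in BXPC3 alone, and CTSS is higher with AM-9747 in BXPC3 and PSN1.

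Of the other glycosidases, IDUA, the alpha-iduronidase that acts on dermatan and heparan sulfate, fell in PSN1 and BXPC3. It had 9.34, 8.78, 13.9 and 10.4 CPM in PSN1 with AM-9747, against 35.6, 73.8, 103 and 82.6 CPM with vehicle (13.9% of vehicle, log2 -2.85 ± 0.35, adjusted p = 0.00177). In BXPC3 it had 1.38, 1.73, 2.2 and 1.56 CPM with AM-9747 and 6.28, 5.11, 6.85 and 10.6 CPM with vehicle (log2 -2.06 ± 0.27, adjusted p = 0.000494). In MIAPACA2 the groups overlapped, at 12.3, 10.5, 5.30 and 6.52 CPM with AM-9747 and 14.3, 9.13, 13.4 and 24.7 CPM with vehicle (log2 -0.81 ± 0.33, adjusted p = 0.135). The MIAPACA2 and PSN1 responses differed by 1.97 ± 0.46 (log2, adjusted p = 0.009). The IDUA calls in BXPC3 and PSN1 held under every alternative, and the gene overlaps SLC26A1 on the other strand.

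FUCA1, the fucosidase, had 31.0, 29.8, 28.6 and 31.0 CPM in BXPC3 with AM-9747 and 73.6, 80.2, 76.8 and 90.9 CPM with vehicle (log2 -1.41 ± 0.11, adjusted p = 4.86e-05). Its levels in MIAPACA2 were 11.8, 8.32, 14.8 and 14.8 CPM with AM-9747 and 27.8, 32.3, 26.8 and 29.6 CPM with vehicle (log2 -1.20 ± 0.18, adjusted p = 0.00246). Both sets were separate, whereas in PSN1 FUCA1 averaged 3.97 ± 0.68 CPM with AM-9747 and 6.51 ± 3.53 CPM with vehicle (SD, n = 4 each, adjusted p = 0.333). HEXA, the alpha subunit of beta-hexosaminidase, which clears GM2 ganglioside, had 40.2, 39.8, 52.6 and 46.3 CPM in MIAPACA2 with AM-9747 and 103, 115, 105 and 89.1 CPM with vehicle (log2 -1.18 ± 0.13, adjusted p = 0.000678). In BXPC3 it fell to 120 ± 6.8 CPM with AM-9747, against 168 ± 6.86 CPM with vehicle (SD, n = 4 each, log2 -0.48 ± 0.10, adjusted p = 0.00627). Its groups in PSN1 did not overlap either, yet the test did not pass there (26.1 ± 3.36 CPM with AM-9747 and 39.7 ± 6.52 CPM with vehicle, SD, n = 4 each, adjusted p = 0.0675). The responses of HEXA differed between the lines (adjusted p = 0.0373), although no single pair of lines passed in the joint fit. In voom with weights that let the spread differ by line, BXPC3 and MIAPACA2 did differ (adjusted p = 0.00417), and the other pairs did not pass.

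MAN2B1, the alpha-mannosidase, had 28.8, 27.4, 23.7 and 21.3 CPM in MIAPACA2 with AM-9747 and 45.7, 58.5, 63.2 and 46.9 CPM with vehicle (log2 -1.05 ± 0.15, adjusted p = 0.00174). The smaller fall of MAN2B1 in BXPC3 (log2 -0.45 ± 0.14, adjusted p = 0.033) was lost without AM-9747 replicate 1, 2 or 3, without vehicle replicate 1 or 3, among genes of at least 5 CPM and in the joint fit (adjusted p up to 0.143). NAGLU, which removes N-acetylglucosamine from heparan sulfate, had 6.16, 7.34, 8.83 and 6.98 CPM in BXPC3 with AM-9747 and 18.8, 15.7, 19.3 and 25.7 CPM with vehicle (log2 -1.43 ± 0.18, adjusted p = 0.000484). NAGLU overlapped between treatments in the other two lines, at 26.7 ± 5.18 CPM with AM-9747 and 30.0 ± 6.5 CPM with vehicle in MIAPACA2 and at 24.8 ± 2.66 CPM with AM-9747 and 31.9 ± 10.4 CPM with vehicle in PSN1 (SD, n = 4 each). Its BXPC3 response differed from that of MIAPACA2 by -1.27 ± 0.31 (log2, adjusted p = 0.0294) and from that of PSN1 by -1.08 ± 0.31 (adjusted p = 0.0343). In voom with weights by line, the difference from MIAPACA2 passed (adjusted p = 0.00528) and that from PSN1 did not (adjusted p = 0.053). NEU1, a sialidase, fell in BXPC3 (log2 -0.47 ± 0.16, adjusted p = 0.0497) and GLA, the alpha-galactosidase, in MIAPACA2 (log2 -0.48 ± 0.13, adjusted p = 0.0353), both close to the threshold. The NEU1 call was lost without any 1 of the 4 vehicle libraries or AM-9747 replicate 1, 2 or 3, with median-of-ratios scaling, among genes of at least 5 CPM and in the joint fit (adjusted p up to 0.132). The GLA call was lost without scaling, in the joint fit and without vehicle replicate 1, 2 or 3 or AM-9747 replicate 1 or 2 (adjusted p up to 0.145). GLB1, GUSB and GALC passed in no line.

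SGSH, the sulfamidase of heparan sulfate breakdown, fell in MIAPACA2 and PSN1. It had 23.7, 23.1, 26.2 and 18 CPM in MIAPACA2 with AM-9747 and 44.3, 38.4, 44.1 and 53.2 CPM with vehicle (log2 -0.96 ± 0.16, adjusted p = 0.00343). In PSN1 the values were 6.49, 6.71, 5.37 and 4.55 CPM with AM-9747 and 12.9, 14.4, 21.0 and 14.8 CPM with vehicle (log2 -1.5 ± 0.29, adjusted p = 0.0121), separate groups whose call was lost without AM-9747 replicate 4 and without scaling (adjusted p up to 0.0524). BXPC3 held little of the transcript, 1.30 ± 0.205 CPM with AM-9747 and 1.62 ± 0.652 CPM with vehicle (SD, n = 4 each). SGSH overlaps CARD14 and SLC26A11 on the other strand. Of the remaining sulfatases, ARSB and GALNS, which act on dermatan and keratan sulfate, fell in BXPC3 (log2 -1.03 ± 0.27, adjusted p = 0.0179, and log2 -0.79 ± 0.16, adjusted p = 0.0046). The ARSB call was lost without AM-9747 replicate 2 and in the joint fit. IDS passed in no line.

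Among the proteases, CTSD, the main aspartic protease of lysosomes, fell in BXPC3 and MIAPACA2. In BXPC3 it had 227, 207, 160 and 102 CPM with AM-9747 and 584, 528, 600 and 720 CPM with vehicle (28.6% of vehicle, log2 -1.80 ± 0.23, adjusted p = 0.000458). In MIAPACA2 it had 112, 85.9, 205 and 107 CPM with AM-9747 and 201, 326, 318 and 201 CPM with vehicle, with the third AM-9747 library inside the vehicle range (log2 -1 ± 0.27, adjusted p = 0.0332). The MIAPACA2 result no longer passed without AM-9747 replicate 1, 2 or 4, without vehicle replicate 2 or 3, without scaling and in the joint fit (adjusted p up to 0.127). In PSN1 the groups overlapped fully, at 368, 140, 96.6 and 85.2 CPM with AM-9747 and 302, 156, 147 and 146 CPM with vehicle (adjusted p = 0.84), and the sign of the difference turned in several alternatives. Replicate 1 was the highest of both PSN1 groups.

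CTSA, a carboxypeptidase that also protects beta-galactosidase and neuraminidase, fell in BXPC3 (99.2 ± 10.1 CPM with AM-9747 and 163 ± 28.1 CPM with vehicle, SD, n = 4 each) and in MIAPACA2 (135 ± 11.7 CPM with AM-9747 and 204 ± 12.5 CPM with vehicle). Its responses there differed from that in PSN1 by -0.90 ± 0.21 and -0.78 ± 0.21 (log2, adjusted p = 0.0122 and 0.0225). TPP1, a tripeptidyl peptidase, fell to 43.2 ± 7.48 CPM with AM-9747 in BXPC3, against 106 ± 8.99 CPM with vehicle (SD, n = 4 each, adjusted p = 0.000227), and also passed in MIAPACA2, where the groups overlapped (129 ± 32.5 CPM with AM-9747 and 214 ± 49.7 CPM with vehicle, adjusted p = 0.0442). That call was lost without scaling, in the joint fit, and without vehicle replicate 1, 2 or 3 or AM-9747 replicate 1, 2 or 4 (adjusted p up to 0.132). The cysteine proteases CTSB (log2 -0.52 ± 0.11, adjusted p = 0.00716) and CTSL (log2 -0.52 ± 0.11, adjusted p = 0.00638) passed in BXPC3 and in no other line, and both calls were lost in the joint fit of the 6 groups.

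CTSS, CTSK and CTSZ each rose in at least 1 line and fell in none. CTSS, a cysteine protease known for antigen processing, had 148, 141, 123 and 127 CPM in BXPC3 with AM-9747 and 82.2, 86.3, 81.9 and 80.1 CPM with vehicle (log2 0.70 ± 0.10, adjusted p = 0.000921). Its levels in PSN1 were 14.2, 9.48, 6.92 and 12.4 CPM with AM-9747 and 4.60, 5.24, 3.01 and 3.09 CPM with vehicle (log2 1.39 ± 0.36, adjusted p = 0.0359). In MIAPACA2 it was scarce, at 1.57 ± 0.704 CPM with AM-9747 and 0.468 ± 0.273 CPM with vehicle (SD, n = 4 each, adjusted p = 0.0646). The groups were separate in BXPC3 and PSN1, but the PSN1 call was lost without AM-9747 replicate 1, 2 or 4, without vehicle replicate 2 or 4, and with the mitochondrial share as a covariate (adjusted p up to 0.109). Leukocytes also express CTSS: a list of 5 leukocyte markers summed to 4.32 to 5.85 CPM with AM-9747 and 3.68 to 5.94 CPM with vehicle in BXPC3 and to 19.8 to 39.9 CPM with AM-9747 and 20.9 to 40.8 CPM with vehicle in PSN1, where CD14 gave most of it and CD3E had 0 counts.

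CTSK, a collagen-degrading protease, had 5.16, 6.65, 9.82 and 13.6 CPM in BXPC3 with AM-9747 and 3.32, 4.42, 2.49 and 2.97 CPM with vehicle (log2 1.42 ± 0.31, adjusted p = 0.00798). It averaged 32 ± 7.37 CPM with AM-9747 and 16.7 ± 7.75 CPM with vehicle in MIAPACA2 (SD, n = 4 each, adjusted p = 0.0683) and 42.4 ± 14.8 CPM with AM-9747 and 32.6 ± 8.34 CPM with vehicle in PSN1 (adjusted p = 0.525). Fibroblasts also express CTSK, and a list of 4 fibroblast markers, led by COL1A1, summed to 25.8 to 33.0 CPM with AM-9747 and 17.4 to 22.3 CPM with vehicle in BXPC3, with none of the 4 at 0 over the group. The part of these markers in the CTSK result was not tested. CTSZ, a carboxypeptidase, rose in MIAPACA2 (181 ± 20.7 CPM with AM-9747 and 131 ± 7.53 CPM with vehicle, SD, n = 4 each, adjusted p = 0.0216), a call lost in the joint fit and when replicate 1 or 4 of AM-9747 or replicate 2 or 3 of vehicle was left out. CTSH, an aminopeptidase, went opposite ways: it fell in BXPC3 (275 ± 32.4 CPM with AM-9747 and 462 ± 109 CPM with vehicle, adjusted p = 0.00993) and rose in MIAPACA2 (62.7 ± 3.26 CPM with AM-9747 and 41.0 ± 2.74 CPM with vehicle, SD, n = 4 each, adjusted p = 0.00409). Both CTSH calls, and that of CTSS in BXPC3, were lost in the joint fit of the 6 groups (adjusted p = 0.0917 for CTSH in BXPC3, 0.236 for CTSH in MIAPACA2 and 0.16 for CTSS). The spread of PSN1 enters every line in that fit, but the cause of these losses was not tested.

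In lipid breakdown, ASAH1, the acid ceramidase, fell in BXPC3 to 48.6 ± 5.36 CPM with AM-9747, against 82.0 ± 10.1 CPM with vehicle (SD, n = 4 each, adjusted p = 0.00236). LIPA, the acid lipase, PPT1, a thioesterase, and SMPD1, the acid sphingomyelinase, passed in no line. In PSN1 SMPD1 averaged 6.79 ± 3.49 CPM with AM-9747 and 2.72 ± 1.67 CPM with vehicle (SD, n = 4 each, adjusted p = 0.157).

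PSAP, the precursor of the saposins that help hydrolases reach sphingolipids, had 0 counts in all 8 BXPC3 libraries, which allows at most 0.0658 to 0.0903 CPM per library. MIAPACA2 libraries held 331, 284, 795 and 382 CPM with AM-9747 and 572, 1110, 892 and 409 CPM with vehicle, and it ranked first of the 54 members per kb of exon (138 ± 72.5 CPM per kb with AM-9747 and 230 ± 96.9 with vehicle, SD, n = 4 each). In PSN1 it had 603, 224, 156 and 169 CPM with AM-9747 and 427, 199, 183 and 160 CPM with vehicle. The treatments overlapped in both of these lines (adjusted p = 0.225 in MIAPACA2 and 0.794 in PSN1). Within MIAPACA2 the 3 libraries with the most PSAP (AM-9747 replicate 3 and vehicle replicates 2 and 3) were also those with the lowest mitochondrial share, 7.23% for AM-9747 replicate 3 and 6.58% and 10.3% for vehicle replicates 2 and 3. The link between the share and PSAP was not tested.

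PSAP lies on chromosome 10, and its neighbours were also scarce in BXPC3. CDH23, C10orf105 and VSIR, on the side of lower coordinates, had 0 counts in all 8 BXPC3 libraries. C10orf105 also had 0 counts in all 8 MIAPACA2 libraries, and 12 to 36 with AM-9747 and 0 to 1 with vehicle in PSN1. CDH23 was low in PSN1 too (4 to 35 counts with AM-9747 and 4 to 70 with vehicle), but had at least 137 in MIAPACA2. VSIR had at least 138 counts in MIAPACA2 and at least 62 in PSN1. On the other side, CHST3 had 1 to 8 counts with AM-9747 and 0 to 25 with vehicle, and ANAPC16, a subunit of the anaphase-promoting complex, had 13 to 25 counts with AM-9747 and 5 to 9 with vehicle in BXPC3, compared with 3109 to 4681 with AM-9747 and 3338 to 4313 with vehicle in MIAPACA2. ASCC1 had 15 to 42 counts with AM-9747 and 31 to 44 with vehicle in BXPC3. The genes beyond were well counted: SLC29A3 had 356 to 475 counts with AM-9747 and 806 to 959 with vehicle, and DDIT4 had 5887 to 6433 with AM-9747 and 12472 to 15707 with vehicle. The counts of SPOCK2, within the stretch, were 104 to 123 with AM-9747 and 43 to 78 with vehicle, higher than those of its neighbours. PSAP was the single gene with 0 counts in every BXPC3 library and a mean of at least 100 CPM in MIAPACA2, but 7 genes met that rule for BXPC3 against PSN1, and 17 genes at 0 in every MIAPACA2 library reached 100 CPM in BXPC3. CTSF had 0 counts in all 8 MIAPACA2 libraries (at most 0.071 to 0.0998 CPM per library) and was low elsewhere, at 0.673 ± 0.193 CPM with AM-9747 and 1.17 ± 0.459 CPM with vehicle in BXPC3 (SD, n = 4 each) and 3.30 ± 0.444 CPM with AM-9747 and 3.76 ± 1.59 CPM with vehicle in PSN1.

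**Figure D3:**
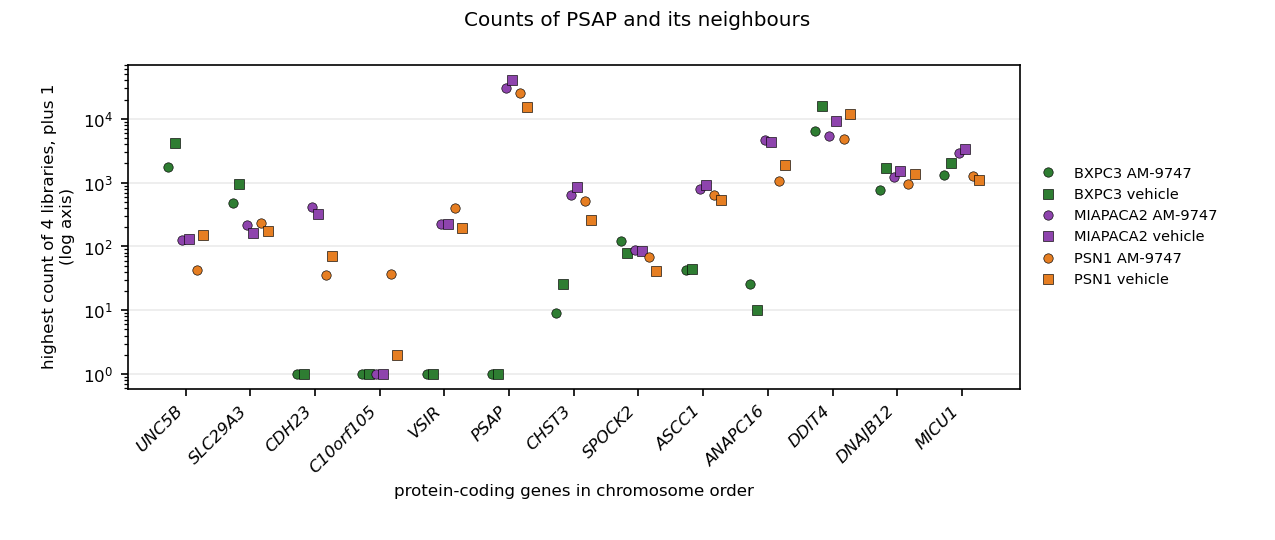
Highest count among the 4 libraries of each group, plus 1 (log axis), for PSAP and the protein-coding genes around it in their order on chromosome 10, with AM-9747 (circles) left of vehicle (squares). In BXPC3 (green), CDH23, C10orf105, VSIR and PSAP sit at 0 counts, CHST3, ASCC1 and ANAPC16 stay at or below 44, and the genes at both ends are well counted.

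Among the members, no gene of the membrane, the proton pump or the transcription factors passed in any line. Other membrane genes, counted further below, did pass. LAMP1, the abundant membrane glycoprotein, had 266, 236, 191 and 150 CPM in BXPC3 with AM-9747 and 302, 286, 295 and 279 CPM with vehicle, separate groups with an adjusted p of 0.0581 that passed in 6 of 17 alternatives. In MIAPACA2 the levels were 64.5, 50.5, 117 and 67.7 CPM with AM-9747 and 78.8, 138, 121 and 67.9 CPM with vehicle. PSN1 libraries held 77.5, 36.9, 25.7 and 29.4 CPM with AM-9747 and 45.6, 20.5, 15.1 and 13.5 CPM with vehicle. Both of those pairs of groups overlapped (adjusted p = 0.368 and 0.253). MCOLN1, the calcium channel of the lysosome, was separate in PSN1 (32.5 ± 9.51 CPM with AM-9747 and 17.7 ± 2.31 CPM with vehicle, SD, n = 4 each, adjusted p = 0.0735), and its response in MIAPACA2 differed from that in PSN1 by -1.15 ± 0.31 (log2, adjusted p = 0.0207).

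ATP6V1A, the catalytic subunit of the V-ATPase, had 130, 92.5, 73.4 and 66.6 CPM in BXPC3 with AM-9747 and 115, 115, 106 and 63.4 CPM with vehicle. It had 46.7, 43.8, 69.6 and 45.1 CPM with AM-9747 and 50.3, 83.4, 64.1 and 44.0 CPM with vehicle in MIAPACA2. It had 54.1, 32.3, 15 and 20.1 CPM with AM-9747 and 33.1, 12.7, 3.97 and 17.6 CPM with vehicle in PSN1. The groups overlapped in all lines (adjusted p from 0.362 to 0.712). The 4 pump genes had a median log2 fold change of -0.10 in BXPC3, -0.22 in MIAPACA2 and 0.70 in PSN1.

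The transcription factor TFE3 had 88.7, 95, 84.9 and 94.7 CPM in BXPC3 with AM-9747 and 78.2, 76.8, 73.0 and 89.5 CPM with vehicle. Its levels in MIAPACA2 were 79.5, 73.4, 82.9 and 84.9 CPM with AM-9747 and 77.1, 79.0, 79.5 and 77.6 CPM with vehicle. In PSN1 the levels were 104, 100, 82.1 and 62.6 CPM with AM-9747 and 118, 119, 103 and 118 CPM with vehicle. These groups overlapped in each line (adjusted p from 0.196 to 0.733). TFEB was scarce everywhere, at 3.56, 3.28, 3.58 and 2.93 CPM with AM-9747 and 2.87, 2.67, 2.19 and 3.92 CPM with vehicle in BXPC3. It had 3.59, 6.07, 6.95 and 3.43 CPM with AM-9747 and 3.35, 4.86, 6.17 and 5.83 CPM with vehicle in MIAPACA2, and 1.91, 2.25, 3.92 and 3.13 CPM with AM-9747 and 2.62, 0.927, 3.18 and 2.38 CPM with vehicle in PSN1. TFEB did not pass in any line either (adjusted p from 0.513 to 0.978). The activity of these factors is set largely by phosphorylation and location, which RNA counts do not show.

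**Figure D4:**
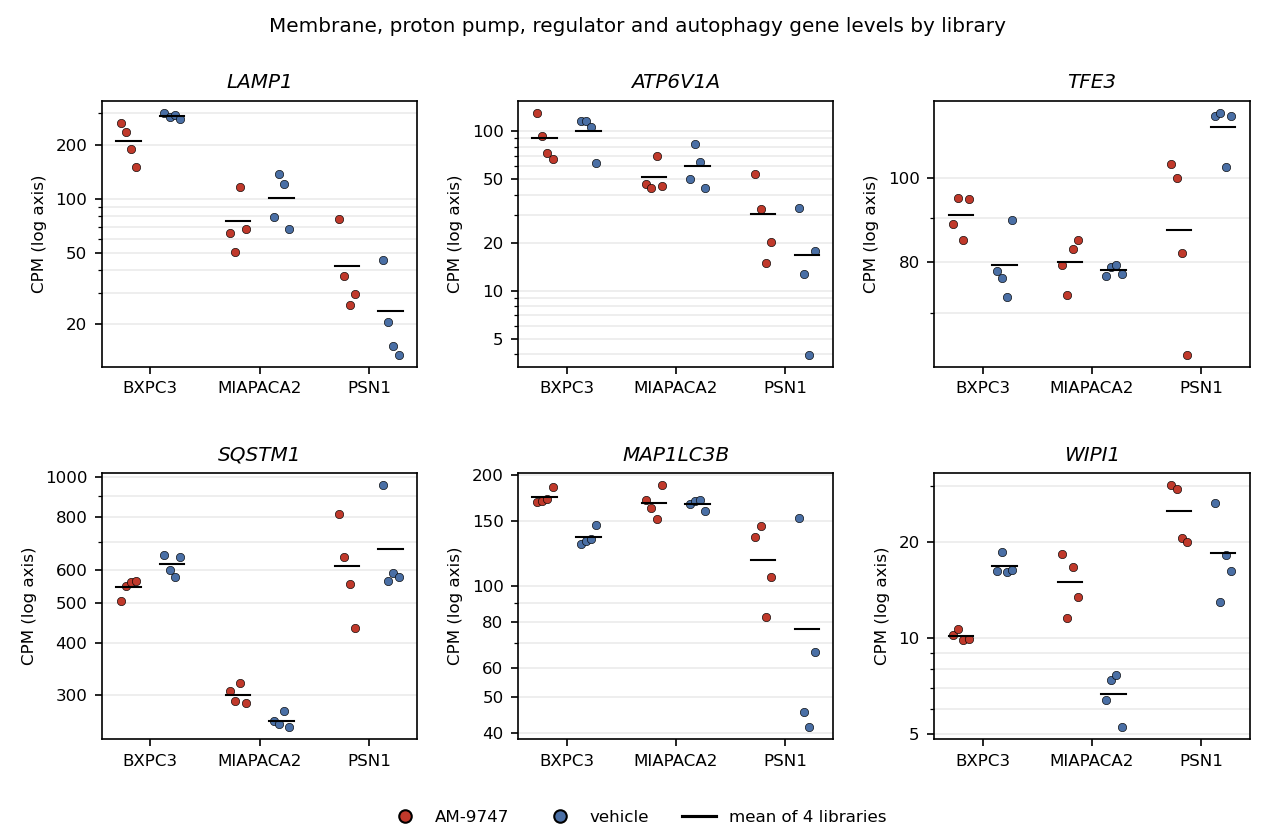
Level in CPM (log axis) of LAMP1, ATP6V1A, TFE3, SQSTM1, MAP1LC3B and WIPI1 in the 24 libraries, with AM-9747 libraries (red) left of vehicle libraries (blue) in each line and a bar at the mean of 4 libraries. MAP1LC3B is separate between the treatments in BXPC3, and WIPI1 is lower with AM-9747 in BXPC3 and higher in MIAPACA2.

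Among the 10 autophagy genes, WIPI1, which binds the phosphoinositide of growing autophagosomes, changed in opposite directions. It had 10.2, 10.7, 9.85 and 9.94 CPM in BXPC3 with AM-9747 and 16.3, 18.6, 16.1 and 16.4 CPM with vehicle (log2 -0.73 ± 0.12, adjusted p = 0.00154). In MIAPACA2 it had 18.4, 11.6, 16.7 and 13.5 CPM with AM-9747 and 6.39, 7.39, 7.67 and 5.26 CPM with vehicle (log2 1.20 ± 0.19, adjusted p = 0.00281). The groups were separate in both lines, the calls held under every alternative, and the responses differed by -1.90 ± 0.31 (log2, BXPC3 minus MIAPACA2, adjusted p = 0.000939). Its levels in PSN1 were 30.2, 29.4, 20.7 and 20.1 CPM with AM-9747 and 26.5, 13.0, 18.2 and 16.3 CPM with vehicle (adjusted p = 0.349). WIPI1 overlaps ARSG on the other strand.

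ULK1, the kinase that starts autophagy, fell in PSN1, with 35.8, 48.1, 72.7 and 50.4 CPM with AM-9747 and 74.9, 132, 156 and 135 CPM with vehicle (log2 -1.32 ± 0.30, adjusted p = 0.0221). Those groups were separate, but the call was lost without AM-9747 replicate 1, 2 or 4, without vehicle replicate 2 or 4, and with the mitochondrial share as a covariate (adjusted p up to 0.084). In BXPC3 ULK1 averaged 45.1 ± 1.4 CPM with AM-9747 and 55.2 ± 3.63 CPM with vehicle (adjusted p = 0.0597), and in MIAPACA2 26.4 ± 4.63 CPM with AM-9747 and 22.7 ± 2.83 CPM with vehicle (SD, n = 4 each, adjusted p = 0.337). The PSN1 response differed from those of BXPC3 (BXPC3 minus PSN1, 0.98 ± 0.29, log2, adjusted p = 0.0393) and MIAPACA2 (MIAPACA2 minus PSN1, 1.49 ± 0.29, adjusted p = 0.0023).

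MAP1LC3B, an LC3 protein that marks autophagosomes, had 169, 170, 173 and 186 CPM in BXPC3 with AM-9747 and 130, 133, 134 and 147 CPM with vehicle (log2 0.37 ± 0.10, adjusted p = 0.0213). It had 172, 163, 152 and 188 CPM with AM-9747 and 167, 170, 171 and 160 CPM with vehicle in MIAPACA2, and 136, 146, 82.7 and 106 CPM with AM-9747 and 153, 45.7, 41.5 and 66.5 CPM with vehicle in PSN1. Only the BXPC3 groups were separate, and that call was lost without vehicle replicate 1, 2 or 3 or AM-9747 replicate 3, with no filter on low counts and in the joint fit (adjusted p up to 0.471). GABARAPL1 rose in BXPC3 by a similar amount (173 ± 7.32 CPM with AM-9747 and 130 ± 11 CPM with vehicle, SD, n = 4 each, log2 0.41 ± 0.10, adjusted p = 0.0151), a call lost without vehicle replicate 1, with no filter on low counts and in the joint fit (adjusted p up to 0.551). Both genes have near-identical copies that could share reads. SQSTM1 had 505, 548, 560 and 563 CPM with AM-9747 and 651, 600, 575 and 644 CPM with vehicle in BXPC3. It had 307, 291, 321 and 287 CPM with AM-9747 and 261, 256, 276 and 252 CPM with vehicle in MIAPACA2, and 815, 643, 554 and 435 CPM with AM-9747 and 954, 563, 590 and 576 CPM with vehicle in PSN1. SQSTM1 groups were separate in BXPC3 and in MIAPACA2, on opposite sides, but the differences were small and did not pass (adjusted p = 0.227 and 0.162). GABARAP, ATG5, ATG7, ATG9A and BECN1 passed in no line.

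Averaged over the 3 lines in a joint fit, 14 members fell and 3 rose of 54, against 10.7% and 12.6% of all genes (23.3% in either direction). Without scaling, 11 fell and 8 rose, against 6.9% and 18.6% of all genes. The rises were CTSS (log2 1.28 ± 0.19, adjusted p = 2.3e-05), CTSK (0.91 ± 0.19) and CTSZ (0.57 ± 0.14), and the largest falls were ACP2 (-2.14 ± 0.16, adjusted p = 1.36e-09), IDUA (-1.90 ± 0.20), GAA (-1.88 ± 0.10) and ARSA (-1.39 ± 0.13). All but ULK1 of these 17 genes are hydrolases. The responses of 10 members differed between the lines (18.5% of members, 12.1% of all genes), and each of the 10 also passed with weights that let the spread differ by line (adjusted p up to 0.0403). Without PSN1 vehicle replicate 1 the number was 27, while the share of all genes was 25.7%. By pair, 3 members differed in response between BXPC3 and MIAPACA2 (2.07% of all genes did), 8 between BXPC3 and PSN1 (8.33% of all genes) and 6 between MIAPACA2 and PSN1 (10.4% of all genes). With weights by line, NAGLU, NEU1 and SGSH no longer passed between BXPC3 and PSN1, nor MAN2B1 between MIAPACA2 and PSN1. CTSH, HEXA and ASAH1 then passed between BXPC3 and MIAPACA2, and CTSL between BXPC3 and PSN1.

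The lines also differed in their levels with vehicle. Between the vehicle groups, 52 of 54 members differed, against 76.4% of all genes, with MAN2B1 (adjusted p = 0.72) and ARSB (adjusted p = 0.0766) as the exceptions. By pair, 33 members differed between BXPC3 and MIAPACA2 (50.3% of all genes), 43 between BXPC3 and PSN1 (62.5%) and 46 between MIAPACA2 and PSN1 (54.4%). Per kb of exon, the most abundant members with vehicle were CD63 (213 ± 49.8 CPM per kb) and CTSD (195 ± 25.9) in BXPC3, PSAP and CTSD (83.7 ± 22.3) in MIAPACA2, and CD63 (173 ± 59.2) and CTSZ (99.9 ± 43.7) in PSN1 (SD, n = 4 each). CD63 and CTSD did not differ beyond their spread in BXPC3. The same held for CTSD and CD63 (82.4 ± 6.26) in MIAPACA2, and for CTSZ, SQSTM1 (87.6 ± 24.7) and CTSL (86.2 ± 45.8) in PSN1. The summed level of the hydrolases and PSAP was 2520 to 2660 CPM with AM-9747 and 3570 to 4160 CPM with vehicle in BXPC3. It was 1940 to 3150 CPM with AM-9747 and 2670 to 4290 CPM with vehicle in MIAPACA2, and 1740 to 3120 CPM with AM-9747 and 1710 to 2860 CPM with vehicle in PSN1, so the sums were separate in BXPC3 and overlapped in the other lines.

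Gene structure is given for the members that fell in at least 2 lines as a description, with no test. Those 11 had a median intron of 466 bp (range 114 to 2475) and a median transcript GC content of 60.9% (range 48.36 to 68.28%), compared with 1378 bp (122.5 to 15260) and 51.2% (37.72 to 63.17%) for the 32 that fell in no line, and with 1810 bp and 50% for all protein-coding genes tested. The 11 members that fell in 1 line lay near those that fell in none, at 1226 bp (426 to 15740) and 52.8% (41.56 to 64.39%). ARSA has the shortest introns of all members, with a median of 114 bp, and IDUA the highest GC content, 68.3%. Across members, Spearman's rho between the log2 fold change and GC content was -0.25 in BXPC3 (n = 53), -0.35 in MIAPACA2 (n = 53) and -0.48 in PSN1 (n = 54), next to -0.08, -0.04 and -0.28 over all protein-coding genes. For median intron length it was 0.26, 0.32 and 0.36 across members and 0.02, 0.00 and 0.17 over all genes. These values describe genes measured in the same libraries, which are not independent replicates. ULK1, the autophagy gene that fell in PSN1, has a GC content of 64.2%.

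**Figure D5:**
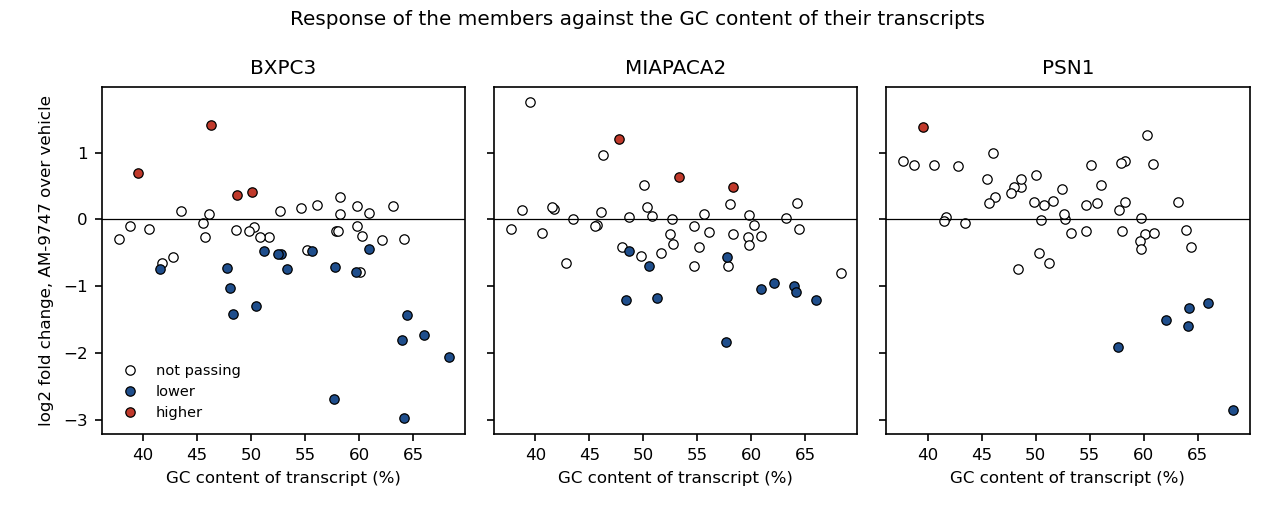
Log2 fold change of AM-9747 over vehicle against the GC content of the transcript for the members tested in each line (53, 53 and 54 points). Blue and red points pass as lower and higher; in PSN1 the 6 lower members lie between 57.65 and 68.28% GC, and in BXPC3 the lower members are spread from 41.56 to 68.28%.

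Promoter sequences of RefSeq (GRCh38.p14) were at hand for 42 of the 54 members. The letters CACGTG, the core that TFEB and TFE3 recognise and that reads the same on both strands, were found in the window from 250 bases before to 50 after the start in 11 of these 42 genes (26.2%), in 28 of 122 other genes of the pathway (23.0%) and in 2396 of 27305 genes in all (8.77%). They were found in 6 of the 16 members with a window that fell in at least 1 line (37.5%) and in 5 of the 26 that fell in none (19.2%), a description with no test. Promoter windows of 4 genes are shown to set genes that fell beside one that did not pass: GAA and ACP2 fell in all lines, CTSD in BXPC3 and MIAPACA2, and LAMP1 in none. Each is given 5′ to 3′ on the strand of the gene, over the 250 bases before a RefSeq start, with CACGTG in capitals. The positions are chr17:80101331-80101580 (plus strand) for GAA, chr11:47248629-47248878 (minus) for ACP2, chr11:1763928-1764177 (minus) for CTSD and chr13:113296989-113297238 (plus) for LAMP1.
GAA: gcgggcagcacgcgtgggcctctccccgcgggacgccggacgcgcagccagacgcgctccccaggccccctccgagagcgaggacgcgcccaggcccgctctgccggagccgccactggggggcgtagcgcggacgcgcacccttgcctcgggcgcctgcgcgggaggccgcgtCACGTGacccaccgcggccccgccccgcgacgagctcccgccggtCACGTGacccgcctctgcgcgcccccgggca
ACP2: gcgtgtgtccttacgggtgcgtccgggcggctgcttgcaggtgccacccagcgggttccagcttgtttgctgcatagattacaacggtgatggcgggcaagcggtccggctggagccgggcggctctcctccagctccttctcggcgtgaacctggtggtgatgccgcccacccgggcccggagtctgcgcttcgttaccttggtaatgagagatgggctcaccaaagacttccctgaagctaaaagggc
CTSD: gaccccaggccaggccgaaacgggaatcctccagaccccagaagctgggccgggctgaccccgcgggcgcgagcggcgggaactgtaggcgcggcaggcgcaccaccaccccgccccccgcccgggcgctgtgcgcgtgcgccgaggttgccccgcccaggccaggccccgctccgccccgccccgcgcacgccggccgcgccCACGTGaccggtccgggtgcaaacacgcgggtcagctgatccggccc
LAMP1: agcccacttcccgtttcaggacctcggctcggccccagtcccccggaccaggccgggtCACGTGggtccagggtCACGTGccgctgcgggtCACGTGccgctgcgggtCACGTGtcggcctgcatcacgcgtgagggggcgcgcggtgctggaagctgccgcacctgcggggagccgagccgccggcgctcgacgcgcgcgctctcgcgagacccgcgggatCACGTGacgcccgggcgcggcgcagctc
GAA has 2 matches, CTSD 1, LAMP1 5 and ACP2 none in these bases.

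Other genes of the same pathway were counted from lists of 153 genes. In BXPC3, 35 of 149 tested fell (23.5%, against 16.0% of all genes) and 12 rose (8.05%, against 13.2%), and 14 of the 28 other hydrolases fell (50%). In MIAPACA2, 10 of 146 fell (6.85%, against 6.84%) and 8 rose (5.48%, against 6.73%). In PSN1, 11 of 151 fell (7.28%, against 6.17%) and 2 rose (1.32%, against 4.52%). The other hydrolases counted 4 of 26 lower in MIAPACA2 (15.4%) and 4 of 28 in PSN1 (14.3%). Of 26 other membrane genes, 9 fell in BXPC3 (34.6%), 2 in MIAPACA2 (7.69%) and 3 in PSN1 (11.5%), while 1 rose, in BXPC3. In BXPC3 the largest falls were SIAE, a sialic acid esterase (12.7 ± 3.45 CPM with AM-9747 and 51.0 ± 4.85 CPM with vehicle), and AGA, the aspartylglucosaminidase (2.19 ± 0.247 CPM with AM-9747 and 8.68 ± 1.92 CPM with vehicle, SD, n = 4 each). Among passing genes with a mean of at least 5 CPM, the largest rises there were TSC1, an inhibitor of mTORC1 signalling (131 ± 6.13 CPM with AM-9747 and 67.6 ± 8.95 CPM with vehicle), and GGA3, a sorting adaptor (58.4 ± 1.99 CPM with AM-9747 and 40.7 ± 2.49 CPM with vehicle). In MIAPACA2 SUMF1, which activates sulfatases, fell to 5.70 ± 0.932 CPM with AM-9747, against 14.1 ± 1.2 CPM with vehicle (SD, n = 4 each). ATP6V1B1, a pump subunit (19.4 ± 3.91 CPM with AM-9747 and 7.27 ± 1.88 CPM with vehicle), and RRAGD, a Rag GTPase (31.2 ± 2.74 CPM with AM-9747 and 14.2 ± 3.14 CPM with vehicle), rose in MIAPACA2. In PSN1 ATG16L2 (3.55 ± 1.06 CPM with AM-9747 and 26.7 ± 10.9 CPM with vehicle) and TPCN2, an endolysosomal channel (2.68 ± 0.589 CPM with AM-9747 and 10.9 ± 3.44 CPM with vehicle), fell, and PIK3R4, a subunit of the autophagy lipid kinase (39.5 ± 2.05 CPM with AM-9747 and 16.4 ± 5.82 CPM with vehicle), and ATP6V1C1, a pump subunit (72.2 ± 17.1 CPM with AM-9747 and 34.3 ± 8.84 CPM with vehicle), rose.

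Of the 145 other genes tested in every line, 5 fell in all of them (3.45%, against 1.16% of all genes), named after their values were seen: SIAE, HGSNAT, the acetyltransferase of heparan sulfate breakdown, and the autophagy genes VMP1, ATG16L2 and WDR45. VMP1, a scramblase of early autophagosomes, had 75.2 to 102 CPM with AM-9747 and 152 to 175 CPM with vehicle in BXPC3, 124 to 148 CPM with AM-9747 and 167 to 210 CPM with vehicle in MIAPACA2, and 116 to 148 CPM with AM-9747 and 362 to 691 CPM with vehicle in PSN1 (log2 -0.89 ± 0.12, -0.41 ± 0.12 and -2.01 ± 0.25). HGSNAT had 25.0 to 32 CPM with AM-9747 and 47.2 to 53.3 CPM with vehicle in BXPC3, 48.4 to 63.7 CPM with AM-9747 and 84.8 to 97.9 CPM with vehicle in MIAPACA2, and 21.3 to 30.6 CPM with AM-9747 and 40.6 to 67.6 CPM with vehicle in PSN1. Both genes were separate between the treatments in every line.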

How the data were processed

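Poly(A) RNA of 24 libraries was analysed, 4 per group, in BXPC3, MIAPACA2 and PSN1 with AM-9747 or vehicle. The authors deposited raw counts of reads for each gene, not normalized, with column names that match the sample labels. The submitters' processing notes name fastp 0.19.8, HISAT2 2.2.0, R 4.0.2, DESeq2 1.34.0 and the GRCh38 build. For the counter, its strand setting and the annotation, details were not given in the sources used here, although the library kit marks strand per the labels' protocols. Exons of 11 members overlap another gene on the same strand and those of 24 on the other strand, so their counts could hold reads of the neighbour. Of the members that passed in a line, CTSD, TPP1, HEXA, MAN2B1 and NAGLU overlap a gene on the same strand.

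Of 60366 entries, 56189 matched GENCODE 29 by ID, as did all 54 members, which gave coordinates, exon lengths, introns and transcript GC content. The members and the lists of other genes were chosen with earlier results of these data known. Total counts of 22.4 to 45.6 M set the depth, and a count of 0 allows up to 3 counts at 95% confidence, for counting error only.

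Each line was fitted alone in R 4.3.3 by the quasi-likelihood test of edgeR 4.0.16, after filterByExpr by group and TMM scaling, with Benjamini-Hochberg adjustment over all genes tested (17638 in BXPC3, 18090 in MIAPACA2, 18287 in PSN1). A joint fit of the 6 groups (22883 genes) gave the mean response, differences of response between lines and vehicle levels. Alternatives were DESeq2 1.42.0, voom of limma 3.58.1 with quality weights, other scalings and filters, a replicate block, the mitochondrial share as a covariate, the joint fit, and leaving out each library.

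On simulated data with 200 changed genes, the separate fits found 87.3% of 4-fold and 36.5% of 2-fold changes in BXPC3 with a false share of 5.56%, 84.9% and 39.1% with 3.03% in MIAPACA2, and 46.9% and 1.89% with 10.7% in PSN1. In the joint fit 75.9% of the PSN1 calls, 25% of the MIAPACA2 calls, 2.63% of the BXPC3 calls and 15.7% of those for the mean response were false. With no gene differing between lines, the joint F test called 12 of 22659 genes and voom 0. The simulation changed far fewer genes than passed in the data, so the shares it found do not carry over to the data.

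Every library is given for members that passed in a line without overlap of the groups, up to 8 per line by size of change, and for GAA, CTSD, LAMP1, ATP6V1A, TFEB, TFE3, SQSTM1 and MAP1LC3B; other genes of the pathway are named by the 2 largest passing changes in each direction per line at a mean of at least 5 CPM, unless stated. A gene that this rule names in MIAPACA2 is not reported here.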

Additional observations from a re-analysis of the deposited data

Results flagged for a closer look

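In a group of 4 libraries, 10 of 124 groups of the members given by library had 1 library far from the other 3, and chance alone marks about 1 in 20 groups in this way. ACP2 was high in PSN1 AM-9747 replicate 3 (8.16 CPM, the others 2.76 to 3.6), and so was MAN2B1 (63.6 CPM, the others 34.5 to 37.6). In PSN1 vehicle replicate 1, CTSD was 302 CPM (the others 146 to 156) and SQSTM1 954 CPM (the others 563 to 590). PSAP was high in replicate 1 of both PSN1 groups, at 603 CPM with AM-9747 (the others 156 to 224) and 427 CPM with vehicle (the others 160 to 199). In PSN1 vehicle replicate 3 TFE3 was low at 103 CPM (the others 118 to 119). ATP6V1A was 69.6 CPM in MIAPACA2 AM-9747 replicate 3 (the others 43.8 to 46.7). BXPC3 vehicle replicate 2 had ULK1 at 49.8 CPM (the others 56.4 to 57.3) and WIPI1 at 18.6 CPM (the others 16.1 to 16.4).

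The response to AM-9747 differed between the lines, by the F test of the joint fit in edgeR, for 10 members. The adjusted p was 7.98e-05 for GAA, 0.000854 for WIPI1, 0.00489 for ULK1, 0.0121 for CTSA, 0.0154 for NAGLU, 0.0159 for GLA, 0.0179 for IDUA, 0.0366 for TPP1, 0.0371 for MCOLN1 and 0.0373 for HEXA.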

How the results depend on the processing

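Of 44 calls of members in a line, 25 held under every alternative, 19 were lost under at least 1 and 0 changed direction. The number of members passing in BXPC3 (23, with 29.2% of all genes) was 40 with voom and quality weights (54.4%) and 14 in the joint fit (10.5%). With 1 library left out it was 19 to 26 (20.5 to 37.3% of all genes). In MIAPACA2 (14, with 13.6% of all genes) it was 25 with voom (28.7%) and 29 with the mitochondrial share as a covariate (35.3%). It was 10 to 21 there with 1 library left out (6.2 to 17.3% of all genes). In PSN1 (7, with 10.7% of all genes) it was 12 with DESeq2 (20.1%), 14 with voom (30.0%) and 15 in the joint fit (25.2%). It was 2 to 12 in PSN1 with 1 library left out (2.77 to 23.0% of all genes). The mean response (17, with 23.3% of all genes) gave 26 members with the mitochondrial share (27.6%) and 17 to 21 with 1 library left out (20.1 to 28.2%). The difference between lines (10, with 12.1% of all genes) gave 18 with DESeq2 (21.4%) and 16 with voom (16.1%). It gave 7 to 27 with 1 library left out (8.42 to 25.7% of all genes). Differences between vehicle lines (52, with 76.4% of all genes) stayed at 50 to 53 with 1 library left out (71.5 to 77.7%). All genes together moved in the same fits, for example to 54.4% called in BXPC3 with voom and 35.3% in MIAPACA2 with the mitochondrial share; the cause was not tested.

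Whether replicate numbers pair the libraries stayed unclear: the correlation of deviations between same-numbered libraries ran from -0.428 to 0.63. The vehicle library that best matched an AM-9747 library had the same number for replicates 1 and 4 in BXPC3, 1 and 3 in PSN1, and none in MIAPACA2. With a replicate block, 27 members passed in BXPC3 (40.4% of all genes), 14 in MIAPACA2 (9.4%; 12 shared with the fit without it, TPP1 and GLA lost), 12 in PSN1 (6 lower and 6 higher; 18.3%), 19 for the mean (25.8%), 24 for the difference (18.9%) and 46 between vehicle lines (59.2%), and the log2 fold change of TFEB in MIAPACA2 was -0.01.

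Some fold changes that did not pass in a line changed sign around 0. SGSH in BXPC3 was 0.01 with voom, and NAGLU in MIAPACA2 0.00 without scaling. TFEB in MIAPACA2 was -0.26 with voom, -0.01 without a filter and in the joint fit, 0.00 with the mitochondrial share, and -0.18 to 0.16 with 1 library left out; MAP1LC3B in MIAPACA2 was -0.02 to 0.08 with 1 left out. In PSN1, without scaling, CTSD was 0.21, MAN2B1 0.13 and SQSTM1 0.17; with the mitochondrial share, MAN2B1 was 0.03 and ATP6V1A -0.01; with 1 library left out, CTSD was -0.82 to 0.13 and SQSTM1 -0.32 to 0.02. With the depth and spread of each line simulated and 200 genes changed, 36.5% of 2-fold changes were found in BXPC3, 39.1% in MIAPACA2 and 1.89% in PSN1. In the data 5158, 2456 and 1954 genes passed in these lines, which makes the adjusted threshold less strict. These shares therefore do not measure how many changes were found in the data.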
